A study of Rattus norvegicus with 6 samples.

Results

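Metallothioneins and zinc handling genes were followed in rat liver, and their probe sets were taken by gene symbol. They were the metallothioneins Mt1 and Mt2A, the transcription factor Mtf1, the zinc exporter Slc30a1 and the zinc importers Slc39a4, Slc39a8 and Slc39a14. A probe set, the group of short array probes that reads a transcript, was taken when the platform annotation gave it exactly 1 of these symbols. This gave 10 probe sets for 7 genes, of 20832 probe sets with 1 symbol and 31099 on the array. Mtf1 had 3 probe sets, Slc39a14 had 2, and the other 5 genes had 1 each. A further probe set annotated to Mt1 together with other genes was left out by this rule.

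Rats ate a fat-rich diet for 30 d until hypercholesterolemic and kept to it for the following 30 d. Through that second period each animal was gavaged daily with 1 ml of saline, which was plain for the high-fat group and held the lactic acid bacterium Lactobacillus casei Zhang for the probiotic group. Each group had 3 liver samples, each on its own array, and both groups had the fat-rich diet, so the comparison is between livers under the same diet with and without the bacterium. The strain, sex and age of the rats were not given in the sources used here, and nothing there ties each sample to a separate animal, so p-values measure the spread between these samples, which may be technical.

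Metallothioneins are small proteins rich in cysteine that bind zinc and copper ions. Mtf1 senses free zinc and, when zinc rises, binds metal response elements in the promoters of the metallothionein genes and of Slc30a1. In liver the metallothionein genes also respond to glucocorticoids and to the cytokine IL-6, and Slc39a14 takes up zinc into hepatocytes during the acute phase response.

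The promoters of Mt1 and Mt2A are shown because metal response elements are the feature that couples these genes to zinc. RefSeq promoter windows of assembly GRCr8 were found for 5 of the 7 genes, with Slc39a4 and Slc39a14 not matched. The 250 bases before each annotated start were searched on both strands for the metal response element core, written as TGCACNC or TGCGCNC. In the sequences below, read 5′ to 3′ along the gene, capitals mark the matches, and a match on the opposite strand appears as its reverse complement. The Mt1 window is chr19:10832976-10833225 and the Mt2A window chr19:10838709-10838958, both on the minus strand.
Mt1: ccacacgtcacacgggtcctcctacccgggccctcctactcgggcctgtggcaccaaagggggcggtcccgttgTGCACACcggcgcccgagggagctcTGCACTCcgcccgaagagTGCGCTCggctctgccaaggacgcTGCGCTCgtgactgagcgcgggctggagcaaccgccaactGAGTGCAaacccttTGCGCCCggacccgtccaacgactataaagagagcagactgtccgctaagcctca
Mt2A: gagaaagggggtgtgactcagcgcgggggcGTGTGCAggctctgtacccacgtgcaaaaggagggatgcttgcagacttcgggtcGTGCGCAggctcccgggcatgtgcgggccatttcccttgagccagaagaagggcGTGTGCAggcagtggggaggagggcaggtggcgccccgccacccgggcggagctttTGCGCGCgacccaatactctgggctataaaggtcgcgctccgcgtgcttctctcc

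The Mt1 window held 6 matches and the Mt2A window 4. Of 33469 windows of this length, 0.0269% held at least 6 matches and 0.266% at least 4. The starts of the genes lie 5733 bases apart, so the promoters belong to neighbouring genes. Mtf1 and Slc30a1 held 2 matches each, where 4.9% of all windows held at least 2, and Slc39a8 held none. TGCACNC alone was in 10.3% of all windows and TGCGCNC in 11.8%.

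Motifs of other regulators were searched in the same windows. The antioxidant response element core, TGACNNNGC, was found once in Mt1, Mt2A, Slc30a1 and Slc39a8, 2 times in Mtf1 and in 10.1% of all windows. The STAT element, TTCNNNGAA, was found in Slc39a8 alone among the 5 genes and in 7.67% of all windows. The hexamer bound by the glucocorticoid receptor, AGAACA, was found in Mtf1 alone among the 5 and in 17.5% of all windows. These matches describe letters in a short window and not binding.

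**Figure D1:**
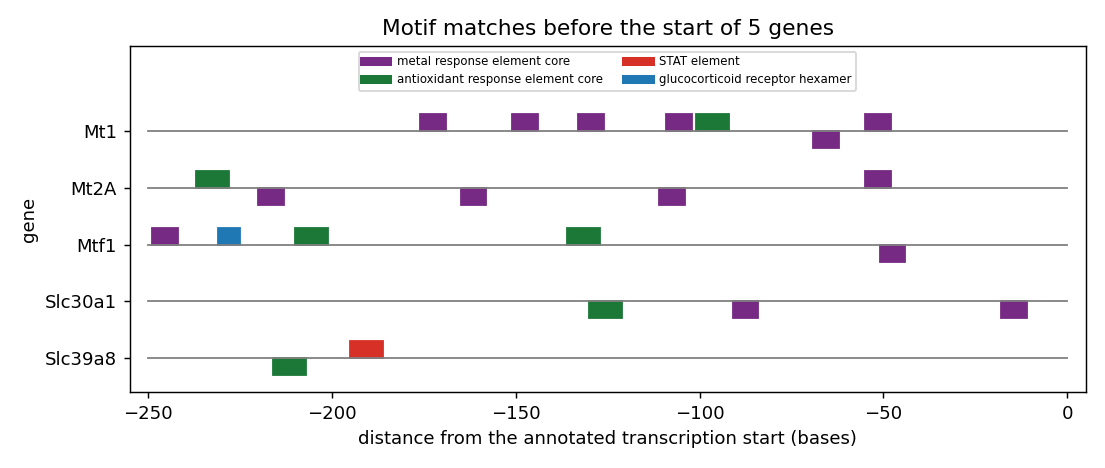
Motif matches in the 250 bases before the annotated start of 5 genes, with distance from the start in bases on the horizontal axis and 1 line per gene. Boxes above a line are on the gene's strand and boxes below it on the opposite strand; Mt1 has 6 metal response element matches, Mt2A has 4, Mtf1 and Slc30a1 have 2 each and Slc39a8 has none.

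The arrays had a trimmed mean signal of 500 each and a median signal of 90.4 to 147.2, highest in high-fat replicate 2. This array also had the largest maximum signal, 132609.2, against 66425.4 to 83659.4 in the other arrays. Any 2 arrays of the same group correlated at 0.916 to 0.953, and arrays of different groups at 0.885 to 0.959. The gap between the 3' and 5' Actb control probe sets, which grows as transcripts shorten, was 1.59 to 1.96 on the log2 scale in the high-fat and 2.11 to 3.01 in the probiotic arrays (exact two-sided permutation p = 0.1, the smallest that 3 against 3 allows). Its extremes were high-fat replicate 2 and probiotic replicate 2. Because this gap did not overlap between the groups, fits with the gap added cannot tell group and gap apart. The same gap for Gapdh overlapped between the groups, at 0.523 to 0.794 in the high-fat and 0.711 to 1.49 in the probiotic arrays (exact two-sided permutation p = 0.2). Of 8 hepatocyte markers, 7 had a probe set and all 7 passed the filter on low signal, which kept 18625 probe sets for testing.

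All 10 member probe sets passed this filter. None differed between the groups after adjustment over all probe sets tested (limma, Benjamini-Hochberg, threshold 0.05), where 4 probe sets (0.0215%) did. At an unadjusted p under 0.05 there were 2 of 10, both of Slc39a14, against 6.85% of all probe sets tested. By sign, 7 of 10 were lower in the probiotic group, against 49.5% of all. The median log2 difference was -0.33 over the 10 and 0.0042 over all. In 3 of 10 every probiotic array lay below every high-fat array, against 6.7% of all. These 3 were 1 probe set each of Slc39a14, Slc39a4 and Mtf1.

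The metallothioneins did not differ between the groups by the test, and the wide spread lay among the high-fat livers. Mt2A had deposited signals, on the authors' linear scale, of 9885.9, 11058.9 and 12568.3 in probiotic replicates 1, 2 and 3. In high-fat replicates 1, 2 and 3 they were 5162.6, 48730.8 and 33162.0. The probiotic values thus sat together between the high-fat extremes, with high-fat replicate 1 below all of them and replicates 2 and 3 above. After quantile normalization, which gives all arrays the same distribution, the log2 signal of Mt2A was 13.45 ± 0.18 for probiotic and 14.19 ± 1.62 for high-fat livers (SD, n = 3 each). The log2 difference, probiotic minus high-fat, was -0.74 (SE 0.627, 95% confidence interval -2.15 to 0.67, adjusted p = 0.796 with limma).

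High-fat replicate 1 decided the call for Mt2A. Without it the log2 difference was -1.70 (adjusted p = 0.0111 with limma), in a fit that called 9 probe sets (0.0483%). Without high-fat replicate 2 it was -0.18 and without high-fat replicate 3 it was -0.34. With any single probiotic array left out it stayed between -0.82 and -0.64, with adjusted p from 0.807 to 0.917. The sign of Mt2A was negative in all 16 alternatives, and the leave-out of high-fat replicate 1 was the only one in which it passed. With the Actb gap added to the fit the log2 difference was -0.29, but the parts of group and gap in it cannot be told apart.

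Mt1 had deposited signals of 374.3, 509.5 and 421.3 in probiotic replicates 1 to 3, and of 167.9, 1944.2 and 302.5 in the high-fat replicates. High-fat replicate 2 stood far above the rest, and the other high-fat arrays lay below all probiotic arrays. The log2 signal was 8.81 ± 0.243 for probiotic and 8.93 ± 1.83 for high-fat livers (SD, n = 3 each). The log2 difference was -0.12 (SE 0.726, 95% confidence interval -1.75 to 1.51, adjusted p = 0.976 with limma), and it was 0.93 without high-fat replicate 2 and -0.86 without high-fat replicate 1. The direction of Mt1 was therefore set by single high-fat arrays. The metallothioneins are closely related in sequence, and whether this probe set also reads other members was not tested.

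The high-fat spread of these genes was wide beside that of other probe sets. The SD of the log2 signal over the 3 high-fat arrays exceeded that of 99.8% of probe sets tested for Mt1 and of 99.4% for Mt2A. Over the probiotic arrays it exceeded that of 36.7% and 23.5%. The median SD of all probe sets tested was 0.326 for high-fat and 0.315 for probiotic arrays. The difference in spread between the groups was not tested. The brain-type metallothionein Mt3 and the epithelial Mt4 were below the filter and not tested, with deposited signals of 16.3 to 82.9 and 15.9 to 62.3.

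**Figure D2:**
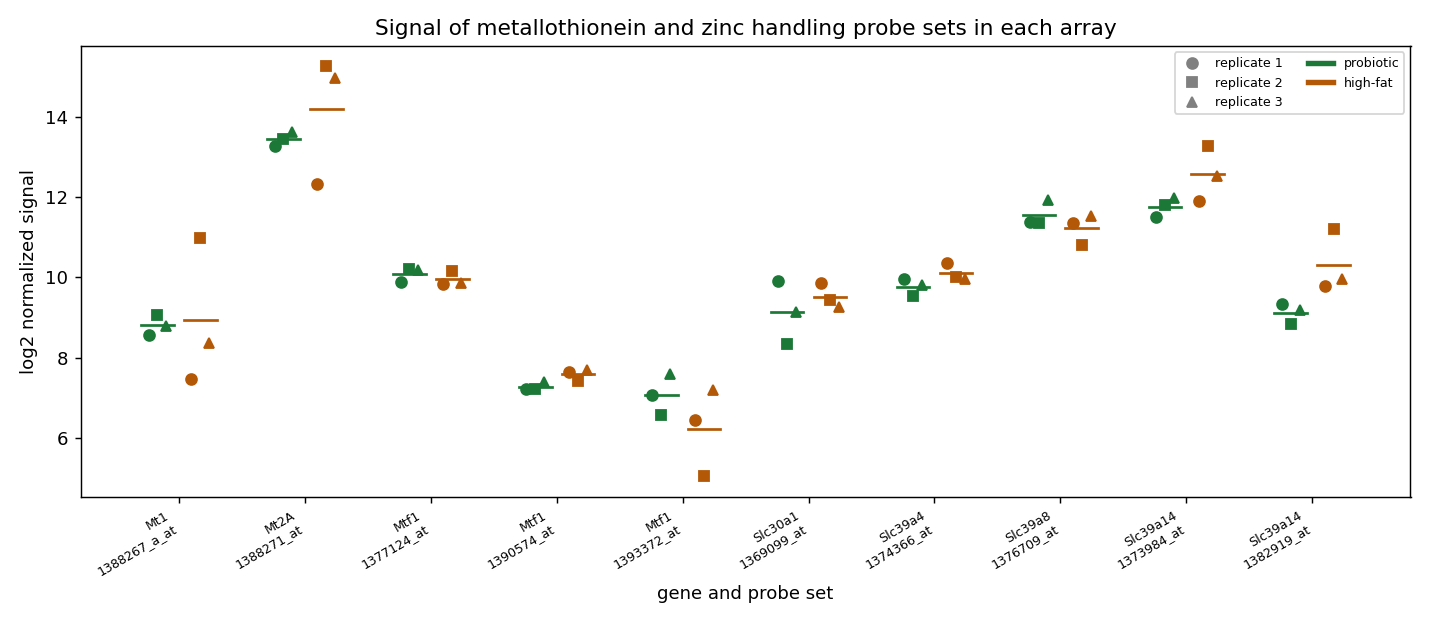
The log2 normalized signal (vertical axis) of each of the 10 probe sets (horizontal axis) in the 3 probiotic arrays (green) and the 3 high-fat arrays (orange), with replicates by symbol and a line at each group mean. The high-fat arrays of Mt2A run from 12.32 to 15.26 and those of Mt1 from 7.46 to 10.98, and the probiotic arrays lie within both ranges; heights of different probe sets are not comparable.

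Mtf1, the zinc sensor, gave probe sets that disagreed in sign, and none separated the groups by the test. The brightest, 1377124_at, had deposited signals of 933.9, 1169.1 and 1162.4 in the probiotic and 893.6, 1109.5 and 944.2 in the high-fat replicates. The groups overlapped, with a log2 difference of 0.13 (SE 0.202, 95% confidence interval -0.32 to 0.59, adjusted p = 0.892 with limma). The spread within each group was also narrow, at an SD of 0.173 for probiotic and 0.179 for high-fat livers.

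The other Mtf1 probe sets were dim. For 1390574_at the deposited signals were 134.8, 129.3 and 145.0 in the probiotic and 191.6, 184.8 and 172.8 in the high-fat replicates. All probiotic values were lower, but by a log2 difference of only -0.31 (adjusted p = 0.808 with limma). For 1393372_at they were 119.9, 77.2 and 169.1 against 75.0, 23.3 and 105.7, which overlapped (log2 difference 0.84, adjusted p = 0.76 with limma; 0.26 without high-fat replicate 2).

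Slc30a1, which exports zinc from the cytosol across the plasma membrane and is a target of Mtf1, had deposited signals of 951.7, 293.4 and 540.9 in the probiotic replicates. They were 902.7, 668.1 and 606.8 in the high-fat replicates. Here the spread lay in the probiotic group, which held both the highest array, replicate 1, and the lowest, replicate 2. The log2 signal was 9.13 ± 0.792 against 9.52 ± 0.301 (SD, n = 3 each), a log2 difference of -0.39 (SE 0.374, adjusted p = 0.813 with limma). It was 0.0075 without probiotic replicate 2 and -0.79 without probiotic replicate 1, so its direction rested on 1 array. Probiotic replicate 2 also had the largest Actb gap of the 6 arrays. With this gap added to the fit the log2 difference was 0.49, but the parts of group and gap in it cannot be told apart.

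Slc39a14, the zinc importer of the acute phase response, came nearest to a difference among the 7 genes. Its brighter probe set, 1373984_at, had deposited signals of 2845.1, 3656.9 and 4082.7 in the probiotic and 3780.7, 10099.3 and 5974.7 in the high-fat replicates. High-fat replicate 2 was highest, and high-fat replicate 1 lay among the probiotic arrays, so the groups overlapped. The log2 signal was 11.77 ± 0.251 against 12.57 ± 0.69 (SD, n = 3 each). The log2 difference was -0.80 (SE 0.311, 95% confidence interval -1.50 to -0.10), or 1.74-fold lower, with an adjusted p of 0.726 and an unadjusted p of 0.0291 in limma.

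The dimmer Slc39a14 probe set, 1382919_at, had deposited signals of 636.7, 432.2 and 567.6 in the probiotic and 860.8, 2267.8 and 1004.9 in the high-fat replicates. Every probiotic array was below every high-fat array. The log2 difference was -1.20 (SE 0.362, 95% confidence interval -2.01 to -0.38), or 2.29-fold lower, with an adjusted p of 0.726 and an unadjusted p of 0.00866 in limma. Both probe sets were lower in the probiotic group in all 16 alternatives. Without high-fat replicate 2 the log2 differences were -0.45 and -0.76, and without high-fat replicate 1 they were -1.13 and -1.47, so the size depended on single high-fat arrays. With the Actb gap added to the fit they were -0.59 and -0.45 (adjusted p = 1 each with limma), but the parts of group and gap in them cannot be told apart.

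Slc39a4, the zinc importer best known from intestinal uptake, had deposited signals of 970.6, 716.1 and 894.8 in the probiotic and 1297.1, 982.8 and 1002.3 in the high-fat replicates. The groups did not overlap, but probiotic replicate 1 and high-fat replicate 3 were close, at log2 signals of 9.95 and 9.96. The log2 difference was -0.35 (SE 0.215, 95% confidence interval -0.83 to 0.14, adjusted p = 0.742 with limma). Slc39a8, which carries zinc, manganese and iron, had 2596.0, 2673.9 and 3842.9 against 2537.1, 1713.4 and 3013.5. These overlapped, with a log2 difference of 0.33 (SE 0.241, 95% confidence interval -0.21 to 0.87, adjusted p = 0.769 with limma). Among the importers Slc39a8 and Slc39a14 thus had values of opposite sign. High-fat replicate 2, the highest array for Slc39a14, was the lowest for Slc39a8, as for 26.1% of all probe sets tested.

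**Figure D3:**
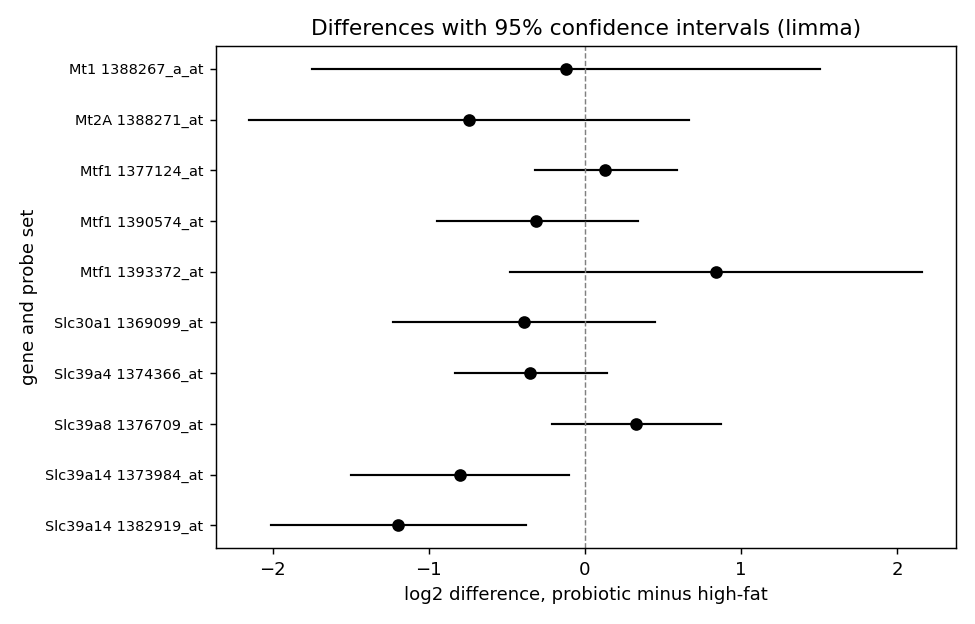
The log2 difference, probiotic minus high-fat (horizontal axis), of each of the 10 probe sets (vertical axis), with points for the limma estimate and bars for its 95% confidence interval. The intervals of the Slc39a14 probe sets, -1.50 to -0.10 and -2.01 to -0.38, lie below 0 before adjustment for the number of probe sets tested; the other 8 include 0.

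Mt1, Mt2A and the Slc39a14 probe sets shared their highest array, but their order of the other arrays differed. High-fat replicate 2 was the highest array for 4 of the 10 member probe sets, which were these 4, against 23.8% of all probe sets tested. It was the lowest array for 2 of the 10, against 26.1% of all. For Mt2A and both Slc39a14 probe sets high-fat replicate 3 came next, but for Mt1 it lay below all probiotic arrays. In Slc39a14 probe set 1382919_at high-fat replicate 1 lay above all probiotic arrays. High-fat replicate 2 was highest and replicate 1 lowest for Mt1 and Mt2A. This order was picked after their values were seen, so its share of all probe sets tested, 4.11%, is description only. Distance from the metallothioneins was measured as the mean absolute difference, over the 6 arrays, between a probe set's centred log2 values and the mean centred profile of Mt1 and Mt2A. It was 0.408 and 0.521 log2 units for the Slc39a14 probe sets, with 0.397% and 2.9% of all probe sets tested lying nearer. For the other members it was 0.654 to 1.12, with 17.4% to 92.2% lying nearer. This distance depends on the size of the swings as well as on their order. For probe sets of narrow spread, such as 1390574_at of Mtf1 (0.654), it therefore does not show a shared pattern.

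The gene nearest to the metallothionein profile was Got1, the cytosolic aspartate aminotransferase, at 0.163 log2 units over the 6 arrays. Its log2 signals were 11.66, 12.30 and 12.13 in the probiotic and 10.80, 14.15 and 13.14 in the high-fat replicates. As with Mt2A, high-fat replicate 1 was lowest and high-fat replicates 2 and 3 were above all probiotic arrays. The next nearest were the glutamate transporter Slc1a2 (0.278), Ss18l1 (0.281), the neuropeptide precursor Npff (0.299) and the splicing factor U2af2 (0.305). These 4 were dim, with log2 signals between 4.94 and 8.31, where the filter on low signal lay at a mean of 6.30.

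**Figure D4:**
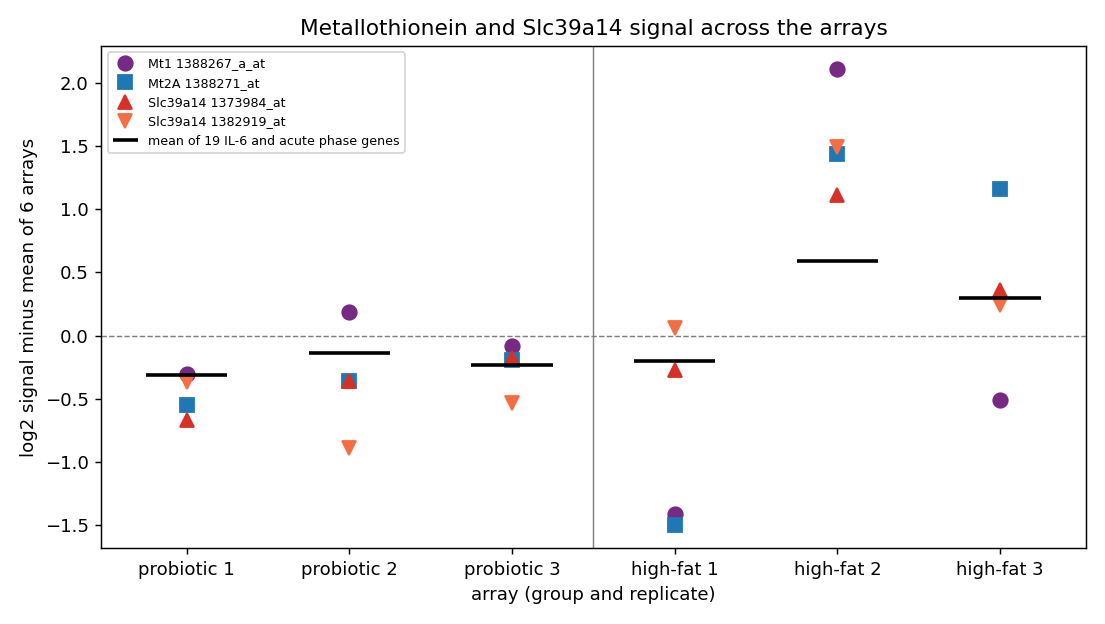
The log2 signal minus its mean over the 6 arrays (vertical axis) for Mt1, Mt2A and both Slc39a14 probe sets in each array (horizontal axis), with a black line at the mean of 19 genes of IL-6 signalling and the acute phase. In high-fat replicate 2 the points lie at 1.11 to 2.11 and the line at 0.59, and in high-fat replicate 1 Mt1 and Mt2A lie at -1.41 and -1.50 and the line at -0.20.

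The zinc transporter families as a whole showed no common direction. Of 10 genes of the SLC30 exporters, 9 had a probe set and all 9 were tested. Of these, 2 had higher and 7 lower values, none past the adjusted test, with a median log2 difference of -0.13 against 0.0042 over all probe sets. Slc30a5, which loads zinc into the early secretory pathway, had the smallest p among the lower (-0.37, adjusted p = 0.735 with limma), and Slc30a10, a manganese exporter, among the higher (0.33, adjusted p = 0.787). The groups did not overlap for 2 of 9, Slc30a5 and Slc30a2, against 12.7% of all probe sets in either direction. The split was 4 higher and 5 lower with median centring. The median was -0.057 without high-fat replicate 2, -0.066 without probiotic replicate 2 and -0.20 without probiotic replicate 3.

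Of 14 SLC39 importers, 12 had a probe set and 10 were tested, Slc39a2 and Slc39a5 being below the filter. Of the 10, 6 had higher and 4 lower values, with a median log2 difference of 0.16 and none past the adjusted test. Slc39a10, a plasma membrane zinc importer, had the smallest p among the higher, at 0.76 (adjusted p = 0.749 with limma), and Slc39a14 among the lower. The median was 0.058 without probiotic replicate 2, 0.087 without high-fat replicate 1, 0.061 without both replicates numbered 2 and -0.00024 with the Actb gap added to the fit. The groups did not overlap for 2 of 10, Slc39a3 and Slc39a4, against 12.7% of all probe sets. Copper handling genes, whose ions metallothioneins also bind, had 7 of 12 higher and 5 lower, a median of 0.023 and none past the adjusted test. This median was -0.011 without high-fat replicate 2, -0.0075 without probiotic replicate 1, -0.0028 without probiotic replicate 3, 0.068 without probiotic replicate 2 and 0.20 with the Actb gap added to the fit. The metalloreductases Steap3 and Steap4 had log2 differences of 1.09 and -0.50 (adjusted p = 0.726 each with limma).

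Genes of IL-6 signalling and the acute phase are given beside the metallothioneins because IL-6 induces both Mt genes and Slc39a14. Of 20 listed, 19 were tested, with 5 higher and 14 lower values, a median of -0.29 and none past the adjusted test. The median was -0.45 without normalization between arrays. The groups did not overlap for 8 of 19, against 12.7% of all probe sets in either direction. The mean centred level of the list was -0.31, -0.14 and -0.23 in probiotic replicates 1 to 3 and -0.20, 0.59 and 0.30 in the high-fat replicates. By this mean high-fat replicates 2 and 3 were highest, as for Mt2A and the Slc39a14 probe sets. The list mean of high-fat replicate 1 lay among the probiotic arrays, but this place rested on 1 gene, A2m, named after its values were seen. The log2 signals of A2m were 7.36 in high-fat replicate 1, 7.96 to 9.12 in the probiotic arrays and 12.92 in high-fat replicate 2. In the 8 genes without overlap, every high-fat array lay above every probiotic array. For Mt2A high-fat replicate 1 lay below all probiotic arrays, and for Slc39a14 probe set 1382919_at above them. Stat3, the transcription factor that carries the IL-6 signal, had the smallest p (log2 difference -2.26, adjusted p = 0.688 with limma; another probe set gave -0.98), and Cebpb, a factor of the same response, the smallest among the higher (0.28, adjusted p = 0.873).

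Glucocorticoid response genes were, on average, highest in another array. Of 11 tested, 10 had higher values and 1 lower, with a median of 0.54 and none past the adjusted test. Their mean centred level was highest in probiotic replicate 2, at 1.44, and it was -0.59 and 0.45 in probiotic replicates 1 and 3 and -0.74, -0.41 and -0.15 in the high-fat replicates. Without probiotic replicate 2 the median was 0.29, with 8 higher and 3 lower, without probiotic replicate 1 it was 1.12, without high-fat replicate 1 it was 0.33, and with the Actb gap added to the fit it was -0.29, with 2 higher and 9 lower. Tsc22d3, a glucocorticoid-induced leucine zipper protein, had a log2 difference of 1.34 (adjusted p = 0.726 with limma) and the kinase Sgk1 -0.064 (adjusted p = 0.967), whose sign turned when probiotic replicate 1 or high-fat replicate 3 was left out. Single genes differed from this mean: Sgk1 was highest in high-fat replicate 3, and a second Fkbp5 probe set, named after its values were seen, ranked 8 by nearness to the metallothionein profile, with its lowest log2 signal in high-fat replicate 1 (7.58) and its highest in high-fat replicate 2 (10.26).

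Oxidative stress genes had 2 of 10 higher and 8 lower, with a median of -0.19 and none past the adjusted test. The median was -0.30 without probiotic replicate 1 and -0.31 without probiotic replicate 2. Nqo1, a quinone reductase, had -1.43 (adjusted p = 0.688 with limma) and Gclc, which starts glutathione synthesis, 0.42 (adjusted p = 0.75). Their mean level in high-fat replicate 1, 0.26, was the highest of the 6 arrays, where Mt1 and Mt2A were lowest. It was 0.19 in high-fat replicate 2, and single genes differed. Named after their values were seen, Nqo1, Gclm and Gsr were highest in high-fat replicate 1. Hmox1, Txnrd1 and Srxn1 were highest in high-fat replicate 2, as Mt1 and Mt2A were, and the other tested genes in probiotic arrays.

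Kupffer cell, macrophage and neutrophil markers had lower values in the probiotic group, and blood and erythroid markers had higher values. Of 12 Kupffer cell and macrophage markers, 9 were tested and all 9 had lower values in the probiotic group, with a median log2 difference of -0.38 and none past the adjusted test. This median was -0.13, with 3 higher and 6 lower, with the Actb gap added to the fit, and -0.11, with 1 higher and 8 lower, without both replicates numbered 2. Their summed normalized signal was 11394 to 14482 in the probiotic and 14209 to 19841 in the high-fat arrays. Of 9 neutrophil markers, 6 had a probe set, and Camp and Csf3r lay below the filter. All 4 tested had lower values, with a median of -0.79 and none past the adjusted test. Summed over all 6, the signals were 559 to 801 in the probiotic and 1059 to 1327 in the high-fat arrays. The neutrophil median was -1.20 with the Actb gap added to the fit, and it was -0.32 without probiotic replicate 2 and -0.37 without both replicates numbered 2, with 3 markers tested in each. Of the 5 T and B lymphocyte markers tested, 3 had higher and 2 lower values, with a median of 0.41 and none past the adjusted test. Cd3d, Cd2 and Cd79b lay below the filter, and with them the summed signals were 382 to 808 and 654 to 812. The lymphocyte median turned negative, at -0.078 to -1.64, when any array other than probiotic replicate 3 was left out, with 2 to 5 markers tested. It was 0.64 with the Actb gap added to the fit. All 5 blood and erythroid markers tested had higher values, with a median of 0.72, none past the adjusted test and summed signals of 32055 to 59878 and 18840 to 28832. Their median was 0.46 without probiotic replicate 2, 0.24 without both replicates numbered 2 and -0.07, with 1 higher and 4 lower, with the Actb gap added to the fit. The summed signal of hepatocyte markers was 368137 to 389203 and 359567 to 419702. In whole liver, fewer cells of a type and less RNA per cell cannot be told apart, and the part of these cells in the Slc39a14 values was not tested.

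**Figure D5:**
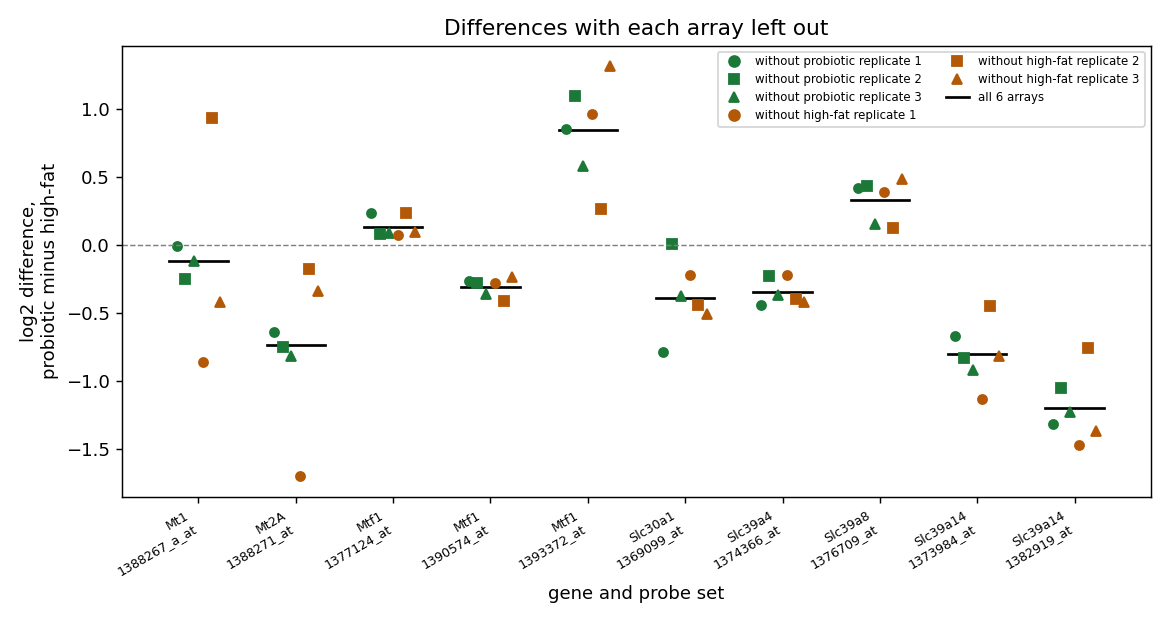
The log2 difference, probiotic minus high-fat (vertical axis), of each probe set (horizontal axis) with all 6 arrays (black line) and with each array left out (symbols, green for a probiotic and orange for a high-fat array). Leaving out high-fat replicate 1 or 2 moves Mt2A to -1.70 or -0.18 and Mt1 to -0.86 or 0.93, while both Slc39a14 probe sets stay below 0.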

How the data were processed

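Per the labels' protocols, biotinylated cRNA from 8 ug of total RNA was hybridised to 1-colour Affymetrix arrays. The authors deposited a linear intensity for each of 31099 probe sets on each array; the software is not given in the sources used here, and the trimmed mean of 500 on every array shows linear scaling. Medians of log2(intensity + 16) still ranged from 6.73 to 7.35, so log2 values were quantile normalized, which removes any difference in overall distribution. The 57 control probe sets were left out, and probe sets with a mean at or above the 40th percentile were tested.

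Groups came from the sample titles. Differences are probiotic minus high-fat on the log2(intensity + 16) scale, which understates changes of dim probe sets, from limma 3.58.1 in R 4.3.3 (lmFit, eBayes with an intensity trend, two-sided, Benjamini-Hochberg over 18625 probe sets). Symbols are those of the platform annotation; 20764 of 20832 matched RefSeq by gene identifier and 0 changed. A gene in a list is given by its brightest tested probe set. Every member was named with all its probe sets, and in each list the gene of smallest p in either direction. Levels of different probe sets are not comparable. Members and lists were chosen with earlier results of these data known. The fits were tested on simulated data. Array number limits the precision. Plots used matplotlib 3.10.9.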

Additional observations from a re-analysis of the deposited data

How the results depend on the processing

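Of 16 alternatives, 1 brought a member past the adjusted threshold: Mt2A without high-fat replicate 1, at -1.70 (adjusted p = 0.0111 with limma). Over single arrays left out, Mt2A ranged from -1.70 to -0.18, Mt1 from -0.86 to 0.93 and Slc30a1 from -0.79 to 0.0075. The sign of Mt1 turned with the Actb gap in the fit (0.57), with array weights (0.32), without high-fat replicate 2 (0.93) and without both replicates numbered 2 (0.80). That of Slc30a1 turned with that gap (0.49) and without probiotic replicate 2 (0.0075), and that of Mtf1 with probe set 1390574_at (-0.31). The cause was not tested. The other members kept their sign in all 16. The count over all probe sets was 3 to 12 with single arrays left out, with 3 to 8 lower and 0 to 6 higher, and 1 was higher without both replicates numbered 2. No listed gene passed under the alternatives run for the lists, which were median centring, no normalization, the Actb gap in the fit and leaving out arrays.

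The titles number replicates 1 to 3 in each group, but the labels do not say that the numbers pair samples, so they were not taken as pairs. Deviations from the group means correlated at 0.144, 0.027 and 0.0774 for same-numbered samples. For differently numbered samples they correlated at -0.141 to 0.0674. These values do not decide whether samples were paired. With the replicate block 4 probe sets passed, as without it. The median of all probe sets tested was 0.0278 with median centring and -0.0201 without normalization.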
